A study of Saccharomyces cerevisiae with 12 samples.

Results

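The genes described here encode the machinery that brings proteins into mitochondria of Saccharomyces cerevisiae. They are 32 named genes, each read through the probe set that carries its symbol alone, 1 probe set per gene, out of 5656 genes with such a probe set. All 32 were found on the array and all 32 passed the filter on dim probe sets, which left 5360 genes. ERV1 had 3 such probe sets, and the one with the highest mean log2 signal over the 12 arrays stood for it. Signals came from cultures of the commercial wine strain EC1118 and of M25, which the labels call a wild-type strain of a university collection. Both were grown at 28°C in synthetic juice with 200 g/l glucose and 2 g/l ammonium sulphate at pH 3.3 (SJ), or in that juice fortified with oleic acid and ergosterol, 15 mg/l each (FSJ). Inoculation was at 1000000 cells/ml from a preculture of 24 h in SJ, so all 4 groups came from cells grown without added lipids, and harvest was at 60 h. Each group had 3 biological replicates, with 1 one-colour array per culture, and each strain stands for itself only.

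Most mitochondrial proteins are made in the cytosol and imported. The TOM complex of the outer membrane is the general entry gate, with receptors that bind precursors and a channel that they pass. From there the SAM complex inserts barrel proteins into the outer membrane, the small TIM chaperones escort hydrophobic precursors across the intermembrane space, and the disulfide relay of Mia40 and Erv1 folds small cysteine-rich proteins, the small TIMs among them. In the inner membrane the TIM22 complex inserts metabolite carriers, and the TIM23 complex passes precursors with a presequence to the matrix, where a motor built around the Hsp70 chaperone Ssc1 pulls them in. Oxa1 inserts proteins into the inner membrane from the matrix side. Ergosterol and unsaturated fatty acids are lipids that yeast cannot make without oxygen, so juices are supplemented with them during fermentation.

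The arrays had the same scale, with a trimmed mean signal of 300.2 to 300.3 on each. The background of an array, taken as the 25th percentile of its yeast probe sets, was 16.6 to 21.7. Of the 32 genes, 31 were over it on all 12 arrays. TOM71 was under it on 4 of the EC1118 arrays. Over the probe sets tested, median log2 signals were 6.90 to 6.92 in M25 in FSJ and 7.07 to 7.17 on the other arrays. Replicates of EC1118 with lipids were the most unlike each other, with a log2 correlation of 0.919 between replicates 2 and 3 against at least 0.970 within the other groups. A gene is called here where its Benjamini-Hochberg adjusted p from limma, over 7349 probe sets, was under 0.05. Signals are on the linear scale of the deposited table, and they are not compared between genes.

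More import genes were called between the strains than between the media, which also held over all genes. Of all genes, 18.1% (SJ) and 34.8% (FSJ) were called between the strains. Between the media, 9.55% (M25) and 2.11% (EC1118) of all genes were called. In SJ, 14 of the 32 import genes were called higher in EC1118 than in M25 and 0 were called lower, where 9.05% of all genes tested were called higher and 9.09% lower. Without M25 in SJ replicate 3 the SJ count was 9, where 6.21% of all genes were called higher. In FSJ, 19 of 32 were called higher and 0 lower, where 24.4% of all genes were called higher and 10.4% lower. With arrays centred on their medians, the FSJ calls were 12 higher and 2 lower, where 13.3% and 19.4% of all genes were called. With quantile normalization they were 16 higher and 2 lower (16.7% and 13.6% of all genes). The 2 called lower with centring and with quantile normalization were TOM71 and TIM18. With only the groups compared in the fit, the FSJ calls were 14 higher and 0 lower (15.9% and 7.11% of all genes). The median log2 difference of the 32 genes was 0.38 in SJ and 0.51 in FSJ, against -0.035 and 0.17 over all genes. With centring the FSJ medians were 0.28 and -0.062, so that scaling moved the median of all genes by more than 0.1 on the log2 scale. Centring shifts all genes of an array alike, so it cannot change the distance between the medians. With quantile normalization, which can change it, the FSJ medians were 0.42 and 0.035.

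**Figure D1:**
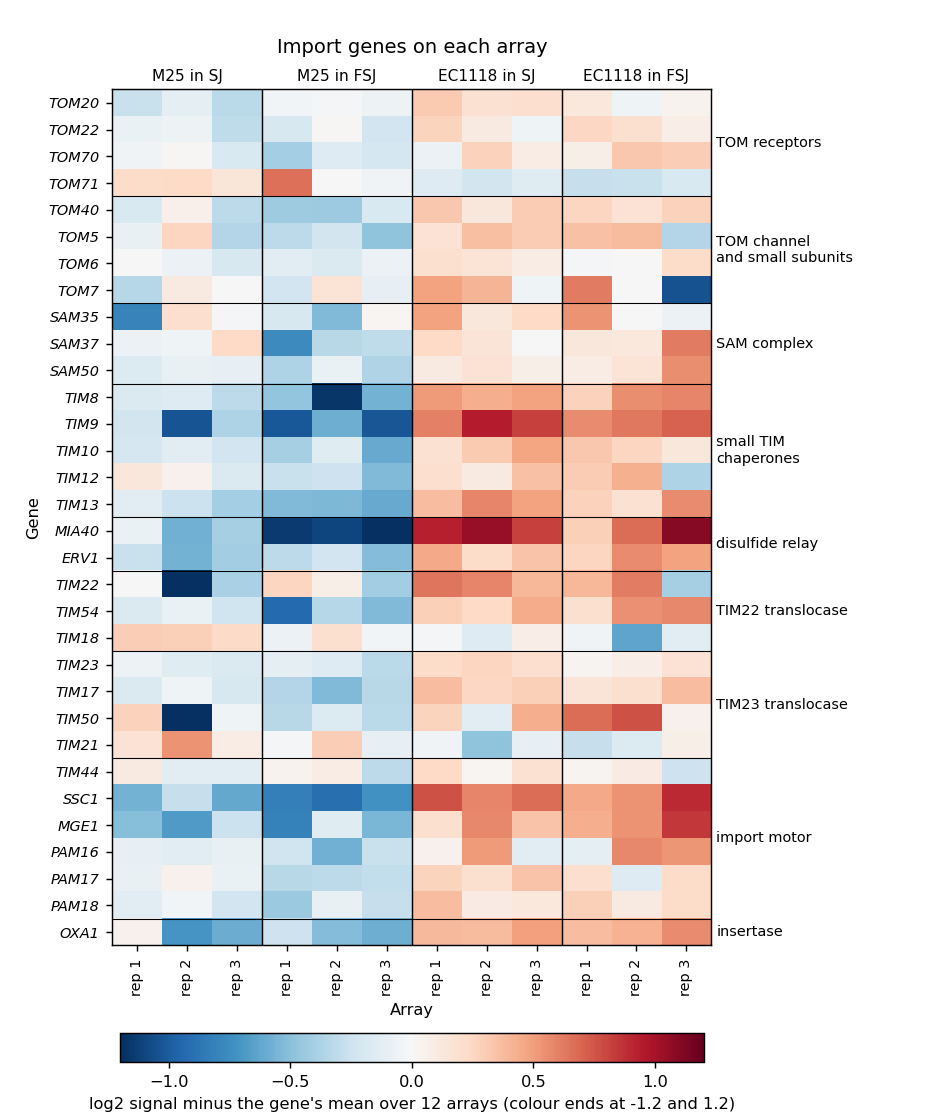
Log2 signal of each import gene (rows, grouped by role) on each of the 12 arrays (columns, 3 replicates per group), minus the mean of that gene over the 12 arrays. Blue M25 columns and red EC1118 columns show the strain difference, while TOM71, TIM18 and TIM21 run the other way and the media of a strain look much alike.

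In 15 of the 32 genes, all 6 EC1118 arrays were above all 6 M25 arrays, which held for 10.6% of all genes. The reverse held for 1 import gene, TOM71, and for 5.90% of all genes. Within a medium, the arrays of the strains did not overlap in 20 genes with EC1118 higher and 3 with EC1118 lower in SJ, against 19.2% and 22.0% of all genes. In FSJ this held for 22 and 1 genes, against 31.0% and 14.3% of all genes. The log2 differences in SJ and in FSJ share no array. Their p-values share 1 estimate of the spread over all 12 arrays, so the calls in the media are not independent. Of the 14 genes called in SJ, 12 (85.7%) were also called in FSJ, which is 63.2% of the 19 called there. Of all 5360 genes, 427 were called higher in both media, which is 88% of those in SJ and 32.6% of those in FSJ. Across the 32 genes the log2 strain differences in SJ and FSJ had a Pearson correlation of 0.78, and across all 5360 genes also 0.78.

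**Figure D2:**
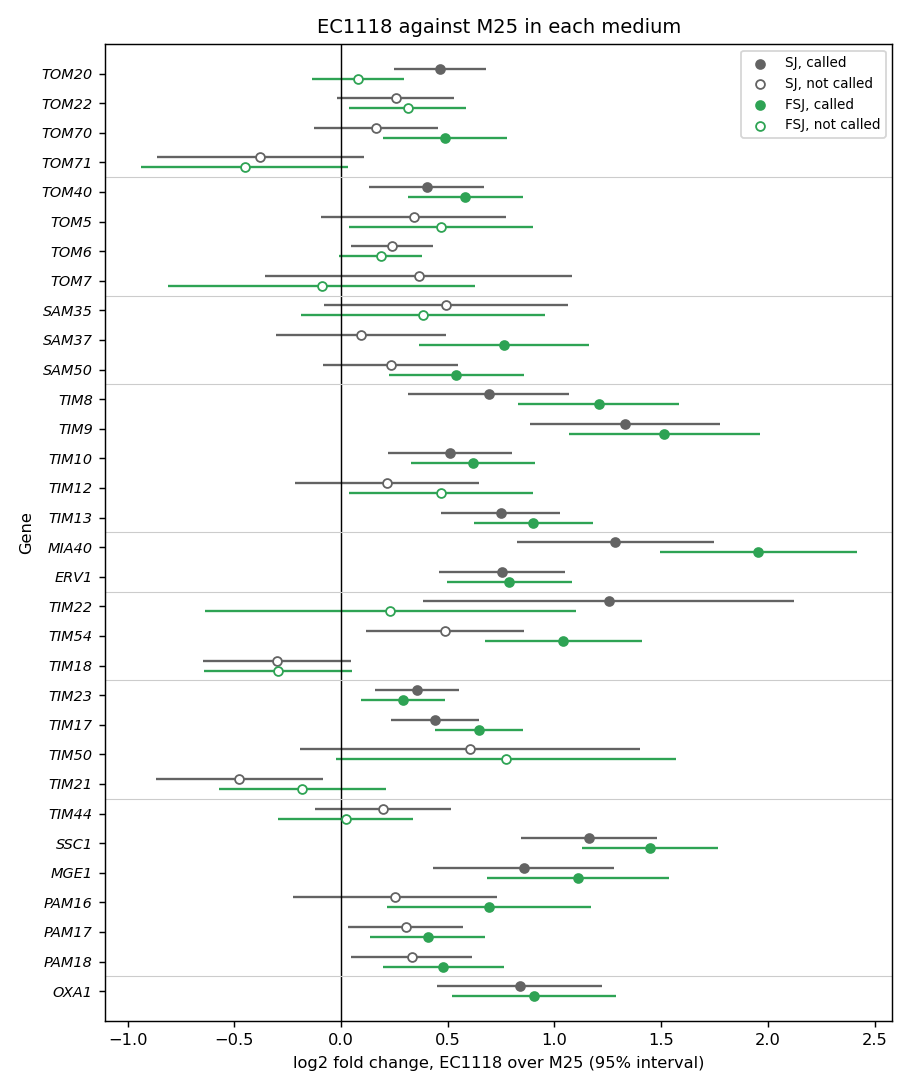
Log2 fold change of EC1118 over M25 for each import gene in SJ (grey) and FSJ (green), with 95% intervals from limma; filled points are called at an adjusted p under 0.05. All 14 filled points in SJ and 19 in FSJ lie to the right of 0, with MIA40, TIM9 and SSC1 farthest out among the genes called in both media.

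The largest strain difference among the 32 genes in FSJ was that of MIA40, in the disulfide relay. MIA40 (YKL195W), the receptor and oxidoreductase of the relay, gave signals in M25 of 221, 156.5 and 177 (SJ) and 105.5, 108 and 79.2 (FSJ), and in EC1118 of 446, 483 and 413 (SJ) and 284, 372.5 and 499 (FSJ). All EC1118 arrays were above all M25 arrays, and the M25 arrays in FSJ were the lowest of all. MIA40 was higher in EC1118 by 2.44-fold in SJ (log2 1.29, SE 0.21, limma adjusted p = 0.00114) and 3.88-fold in FSJ (log2 1.96, adjusted p = 3.6e-05). ERV1 (YGR029W), the sulfhydryl oxidase that recharges Mia40, gave signals in M25 of 403, 326 and 363 (SJ) and 389, 412 and 337 (FSJ), and in EC1118 of 662, 564 and 613 (SJ) and 577, 716 and 675.5 (FSJ). Again the strains did not overlap in either medium, and the media did. ERV1 was higher in EC1118 by 1.69-fold in SJ (log2 0.76, SE 0.13, limma adjusted p = 0.00207) and 1.73-fold in FSJ (log2 0.79, adjusted p = 0.000881). The other ERV1 probe sets gave log2 differences of 1.00 and 0.66 in SJ and 1.13 and 0.76 in FSJ, all called, so all 3 probe sets of the gene had the same direction. The ERV1 probe set shown carries a suffix for shared sequence, and the others do not.

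Of the 5 small TIM chaperones, which are substrates of this relay, 4 were called higher in EC1118 in both media, as were 427 of all 5360 genes. TIM9 (YEL020W-A), which pairs with Tim10 in the main chaperone ring, gave signals in M25 of 291, 165 and 262 (SJ) and 167, 225.5 and 166 (FSJ), and in EC1118 of 514, 652 and 597.5 (SJ) and 503, 525 and 552 (FSJ). Every EC1118 array was far above every M25 array. Its difference was 2.51-fold in SJ (log2 1.33, SE 0.20, limma adjusted p = 0.00071) and 2.86-fold in FSJ (log2 1.51, adjusted p = 0.000175). TIM10 (YHR005C-A), its partner, gave signals in M25 of 561, 592 and 549.7 (SJ) and 491, 585 and 424 (FSJ), and in EC1118 of 734, 804 and 897 (SJ) and 805, 769 and 709 (FSJ). The strains stood apart here too, with a smaller difference of 1.43-fold in SJ (log2 0.51, SE 0.13, limma adjusted p = 0.0176) and 1.53-fold in FSJ (log2 0.62, adjusted p = 0.00373). The TIM10 call in SJ was lost without M25 replicate 1 or 3 or EC1118 replicate 3 of that medium (limma adjusted p of up to 0.0749). TIM8 (YJR135W-A) and TIM13 (YGR181W) form the other chaperone ring of the intermembrane space. TIM8 gave signals in M25 of 307, 311 and 279.6 (SJ) and 250.0, 154 and 234 (FSJ), and in EC1118 of 495, 469.8 and 483 (SJ) and 419, 510.0 and 521 (FSJ). Its EC1118 signals overlapped between the media, and the M25 arrays in FSJ lay below those in SJ, which was not called (log2 -0.52, limma adjusted p = 0.0838). The strain difference of TIM8 was 1.62-fold in SJ (log2 0.69, SE 0.17, limma adjusted p = 0.0146) and 2.31-fold in FSJ (log2 1.21, adjusted p = 0.000265). Without M25 in SJ replicate 3 the TIM8 call in SJ was lost (limma adjusted p = 0.0586). TIM13 gave signals in M25 of 477, 437 and 395 (SJ) and 363, 361 and 344 (FSJ), and in EC1118 of 677, 786 and 733 (SJ) and 636, 596 and 775.5 (FSJ). Its lowest EC1118 array was above its highest M25 array, and EC1118 was higher by 1.68-fold in SJ (log2 0.75, SE 0.13, limma adjusted p = 0.00154) and 1.87-fold in FSJ (log2 0.90, adjusted p = 0.000255). The fifth, TIM12, a small TIM that sits on the TIM22 complex, had signals of 97.9 to 189.6 over the 12 arrays and did not pass (log2 0.22, adjusted p = 0.514 in SJ and log2 0.47, adjusted p = 0.0858 in FSJ). Without EC1118 in FSJ replicate 3, its lowest array in that group, TIM12 was called in FSJ (log2 0.71, adjusted p = 0.00585).

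**Figure D3:**
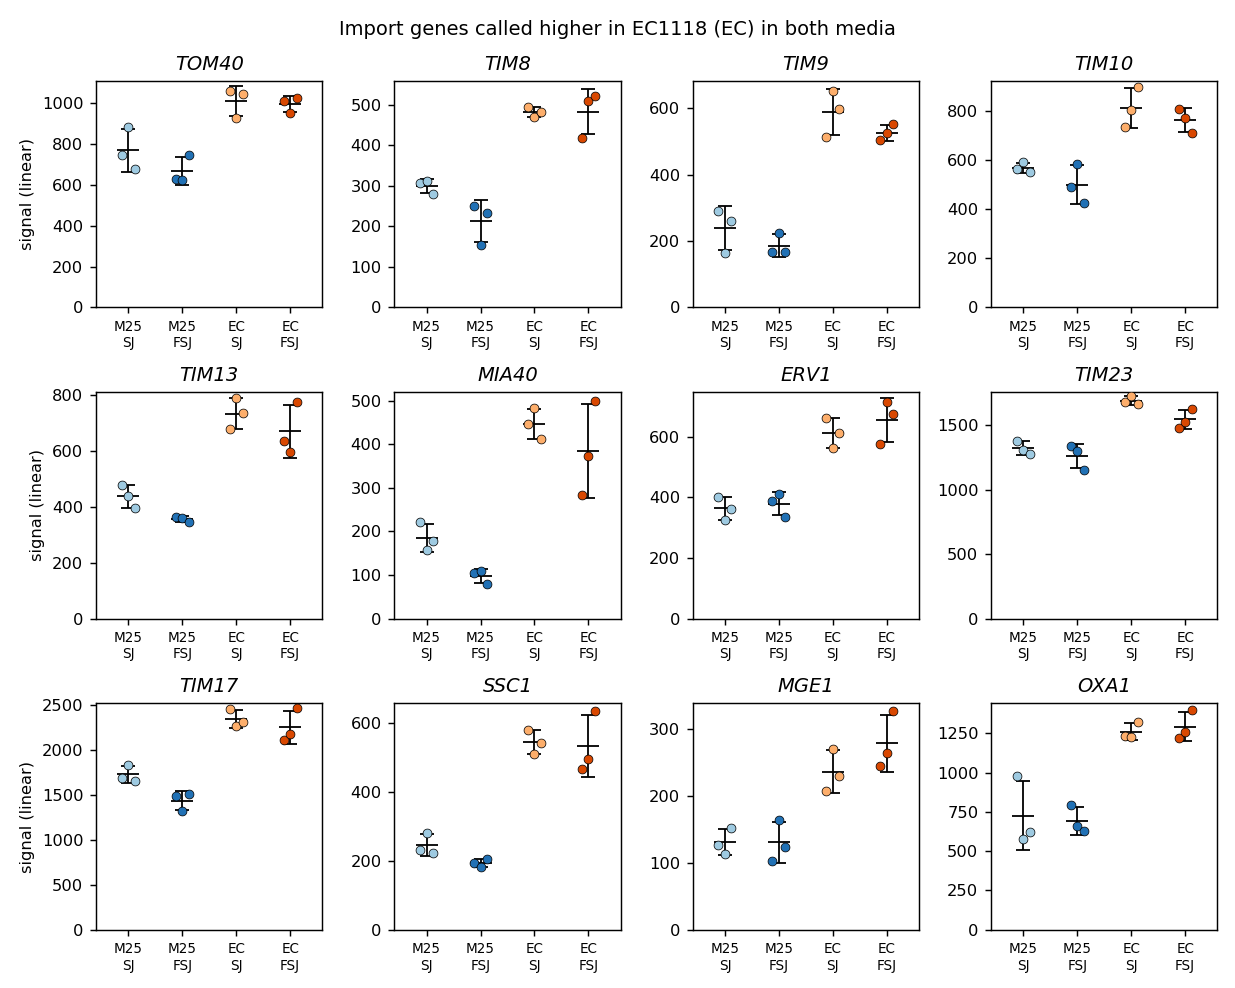
Linear signals on each array (points) with the mean and SD of each group (n = 3) for the 12 import genes called higher in EC1118 in both media; the vertical axes start at 0 and differ between genes. In every panel the EC1118 points are above the M25 points of the same medium.

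Large differences were also measured in the import motor. SSC1 (YJR045C), the mitochondrial Hsp70 that drives import, gave signals in M25 of 230.3, 281.5 and 223 (SJ) and 193, 182 and 206 (FSJ), and in EC1118 of 581, 511 and 543 (SJ) and 467, 496 and 635 (FSJ). Even the lowest EC1118 array was well above the highest M25 array. SSC1 was higher in EC1118 by 2.23-fold in SJ (log2 1.16, SE 0.15, limma adjusted p = 0.000171) and 2.73-fold in FSJ (log2 1.45, adjusted p = 2.08e-05). MGE1 (YOR232W), its nucleotide exchange factor, gave signals in M25 of 127, 113 and 152 (SJ) and 103, 164 and 124 (FSJ), and in EC1118 of 208, 271 and 229.7 (SJ) and 245, 263.5 and 327 (FSJ). The strains did not overlap, and EC1118 was higher by 1.81-fold in SJ (log2 0.86, SE 0.19, limma adjusted p = 0.00882) and 2.16-fold in FSJ (log2 1.11, adjusted p = 0.00104). The J-domain protein gene PAM18 and its partners PAM16 and PAM17 were called higher in FSJ (log2 0.48, 0.69 and 0.41) and not in SJ (log2 0.33, 0.25 and 0.30, with adjusted p of 0.0987, 0.485 and 0.111). With arrays centred on their medians none of these 3 was called in FSJ. Over all 22 alternatives the FSJ calls of PAM18, PAM16 and PAM17 were lost under 3, 6 and 7. TIM44, which anchors Ssc1 at the channel, had similar signals in every group, 433 ± 40.4 (SJ) and 430.1 ± 61.6 (FSJ) for M25 against 495 ± 38.4 (SJ) and 436 ± 53.0 (FSJ) for EC1118 (SD, n = 3). Its 95% interval for EC1118 over M25 was -0.12 to 0.51 in SJ and -0.30 to 0.34 in FSJ on the log2 scale. The FSJ difference of TIM44, 0.02, was -0.21 with centring and -0.11 with quantile normalization. Genes of 1 motor thus had strain differences from 0.02 to 1.45 in FSJ.

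The core of the TIM23 translocase was moderately higher in EC1118. TIM17 (YJL143W), a channel subunit, gave signals in M25 of 1689.7, 1834 and 1659 (SJ) and 1488, 1315 and 1504 (FSJ), and in EC1118 of 2457, 2263 and 2312 (SJ) and 2115, 2177 and 2460.4 (FSJ). Its strains were apart in both media, with a difference of 1.36-fold in SJ (log2 0.44, SE 0.09, limma adjusted p = 0.00632) and 1.57-fold in FSJ (log2 0.65, adjusted p = 0.000299). TIM23 (YNR017W), the other channel subunit, gave signals in M25 of 1380.3, 1303 and 1277 (SJ) and 1334, 1298 and 1155 (FSJ), and in EC1118 of 1679, 1727 and 1659.9 (SJ) and 1479, 1524 and 1628 (FSJ). Although the difference was small, no EC1118 array fell into the range of M25, and it was 1.28-fold in SJ (log2 0.36, SE 0.09, limma adjusted p = 0.0157) and 1.22-fold in FSJ (log2 0.29, adjusted p = 0.0257). The TIM23 call in FSJ was lost under 5 of 22 alternatives, among them arrays centred on their medians (log2 0.061, limma adjusted p = 0.617). The call in SJ was lost without M25 replicate 2 or 3 or EC1118 replicate 2 of that medium. TIM50, the presequence receptor of the complex, did not pass (log2 0.60 in SJ and 0.77 in FSJ), with 299.9, 90.2 and 239 in M25 in SJ, where replicate 2 was far below the others. Without that array TIM50 was called in FSJ (limma adjusted p = 0.0164), as it was with only the groups compared (adjusted p = 0.036). TIM21, which links TIM23 to TOM and to respiratory complexes, had lower EC1118 signals, 164 ± 25.9 against 228 ± 39.2 in SJ and 174 ± 21.8 against 197 ± 29.6 in FSJ (SD, n = 3). It did not pass either (log2 -0.48, adjusted p = 0.0857 in SJ and log2 -0.18, adjusted p = 0.462 in FSJ).

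In the TIM22 complex, TIM54, a subunit exposed to the intermembrane space, was called higher in EC1118 in FSJ (log2 1.04, adjusted p = 0.00062) and just missed the threshold in SJ (log2 0.49, adjusted p = 0.0631). TIM22, the channel subunit, was called in SJ (log2 1.25, adjusted p = 0.0444), where its M25 signals were 98.5, 28.8 and 74.9. Replicate 2 was far under the other M25 arrays, and without it the difference was 0.73 on the log2 scale and was not called. The TIM22 call was lost under 11 of 22 alternatives. TIM18, the remaining subunit, was lower in EC1118 without passing (log2 -0.30 and -0.30). OXA1 (YER154W), the insertase, gave signals in M25 of 979, 576 and 623 (SJ) and 793, 659.8 and 627 (FSJ), and in EC1118 of 1236, 1225 and 1323 (SJ) and 1221, 1259.5 and 1398 (FSJ). In each medium the highest M25 array was well under the lowest EC1118 array, and the difference was 1.79-fold in SJ (log2 0.84, SE 0.18, limma adjusted p = 0.0058) and 1.87-fold in FSJ (log2 0.90, adjusted p = 0.00208).

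The TOM receptors had the smallest median strain difference of the 9 roles, 0.21 in SJ and 0.20 in FSJ on the log2 scale. TOM40 (YMR203W), the import channel, gave signals in M25 of 744, 881 and 677 (SJ) and 626, 624 and 744 (FSJ), and in EC1118 of 1058, 925 and 1043.5 (SJ) and 1007, 949 and 1023 (FSJ). The strains did not overlap, and EC1118 was higher by 1.32-fold in SJ (log2 0.40, SE 0.12, limma adjusted p = 0.0398) and 1.5-fold in FSJ (log2 0.58, adjusted p = 0.00344). The TOM40 call was lost in SJ under 8 of 22 alternatives, with a limma adjusted p of up to 0.16, and in FSJ with arrays centred on their medians (adjusted p = 0.0606). None of the small channel subunits TOM5, TOM6 and TOM7 passed, with log2 differences of 0.24 to 0.36 in SJ and -0.09 to 0.47 in FSJ. TOM6 was called in both media with quantile normalization (log2 0.27 and 0.32), while its FSJ value was -0.04 with arrays centred on their medians. TOM5 was called in FSJ without EC1118 in FSJ replicate 3 (log2 0.71, limma adjusted p = 0.00711) and with the replicate block (adjusted p = 0.0393). Among the receptors, TOM20, which binds presequences, was called in SJ (1152 ± 58.5 against 836 ± 65.5, log2 0.46, adjusted p = 0.00577) and not in FSJ (log2 0.08, adjusted p = 0.567, and log2 -0.15 with arrays centred on their medians). TOM70, which binds carrier precursors, was called in FSJ (log2 0.49, adjusted p = 0.0144) and not in SJ (log2 0.16, adjusted p = 0.453). With centring and with quantile normalization the FSJ call of TOM70 was lost (limma adjusted p = 0.159 and 0.0613). It was also lost with only the groups compared and without M25 in FSJ replicate 1 (limma adjusted p = 0.0526 and 0.058). The central receptor TOM22 passed in neither (log2 0.26 and 0.31). TOM71, the paralog of TOM70, lay near the background with 26.6, 27.0 and 25.3 in M25 in SJ and 20.5, 19.6 and 20.6 in EC1118 in SJ. None of the 3 EC1118 arrays in FSJ reached the background for TOM71. Of the SAM genes, SAM50, the barrel that inserts other barrels, and SAM37 were called in FSJ (log2 0.54 and 0.76), and in SJ none of SAM35, SAM37 and SAM50 was called (log2 0.09 to 0.49). The SAM50 call was lost with centring, with quantile normalization and with only the groups compared (limma adjusted p = 0.113, 0.06 and 0.0703).

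A call in 1 medium only does not show that the strain difference changed with the medium. The test of that change is the interaction, the effect of FSJ over SJ in EC1118 minus that in M25, and limma called 0 of the 32 genes there (0.187% of all genes). At an unadjusted p under 0.05 there were 4 (12.5%, against 16.3% of all genes), TOM20, SAM37, MIA40 and TIM54. Their log2 interactions were -0.39, 0.67, 0.67 and 0.55, with adjusted p of 0.248 to 0.319. For all but 8 genes the 95% interval of the interaction lay within a change of 2-fold in either direction.

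Few import genes were called between the media. Averaged over the strains, 1 of 32 was called lower and 0 higher, where 5.82% of all genes were called lower and 4.63% higher. The gene called was MIA40 (log2 fold change -0.58, SE 0.15, limma adjusted p = 0.0309). In M25 the count was the same, 1 called and lower, where 9.55% of all genes were called and 6.55% called lower. There MIA40 fell from 185 ± 32.9 to 97.7 ± 16.1 (SD, n = 3; log2 -0.92, adjusted p = 0.0205), and the arrays of the media did not overlap. In EC1118 the MIA40 signals overlapped between the media and the test was not passed (log2 -0.25, adjusted p = 0.602). The MIA40 calls were narrow. The averaged call was lost under 10 of 21 alternatives, with an adjusted p of up to 0.0775, and the M25 call under 4 of 22, with up to 0.0835. Quantile normalization and leaving out M25 in SJ replicate 1 or 3 or M25 in FSJ replicate 3 ended both.

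In EC1118 limma called 0 of 32, and 0 were at an unadjusted p under 0.05 (17.6% of all genes were), where 1.32% of all genes were called lower and 0.784% higher. In M25 8 genes (25.0%, against 27.6% of all genes) were at an unadjusted p under 0.05, all of them lower in FSJ, namely SAM37, TIM8, TIM13, MIA40, TIM54, TIM17, SSC1 and PAM17. Arrays of the media did not overlap in 11 genes lower in FSJ and 1 higher in M25, against 26.0% and 11.9% of all genes. In EC1118 this held for 2 genes lower, TOM20 and TIM23, and 0 higher, against 6.47% and 14.0% of all genes. TOM20 lay higher in FSJ in M25 (956.5, 964.5 and 941.5 against 813, 910.2 and 785) and lower in FSJ in EC1118 (1071, 947 and 1009 against 1219.5, 1112 and 1126), and its interaction was not called. In M25 25 of the 32 fitted values were negative, as were those of 3363 of all 5360 genes. The median of the 32 was -0.19 against -0.11 over all genes. With centring the M25 values of TOM6, SAM35, TIM23, TIM44, MGE1, PAM18 and OXA1 turned positive. With arrays centred on their medians, the median of the 32 in M25 was -0.041, and 0.040 over all genes. Such centring shifts all genes of an array alike, so in neither strain can it change the distance between these medians. In EC1118 the median was -0.065 against 0.079, and -0.16 against -0.022 with centring. The 95% intervals lay within a change of 2-fold in either direction for 30 genes in M25 (not MIA40 and TIM22) and for 29 in EC1118 (not TOM7, TIM22 and TIM50). Whether cultures of both media and strains were at the same stage at 60 h was not analysed here, so a difference in stage cannot be told apart from one of medium or strain.

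**Figure D4:**
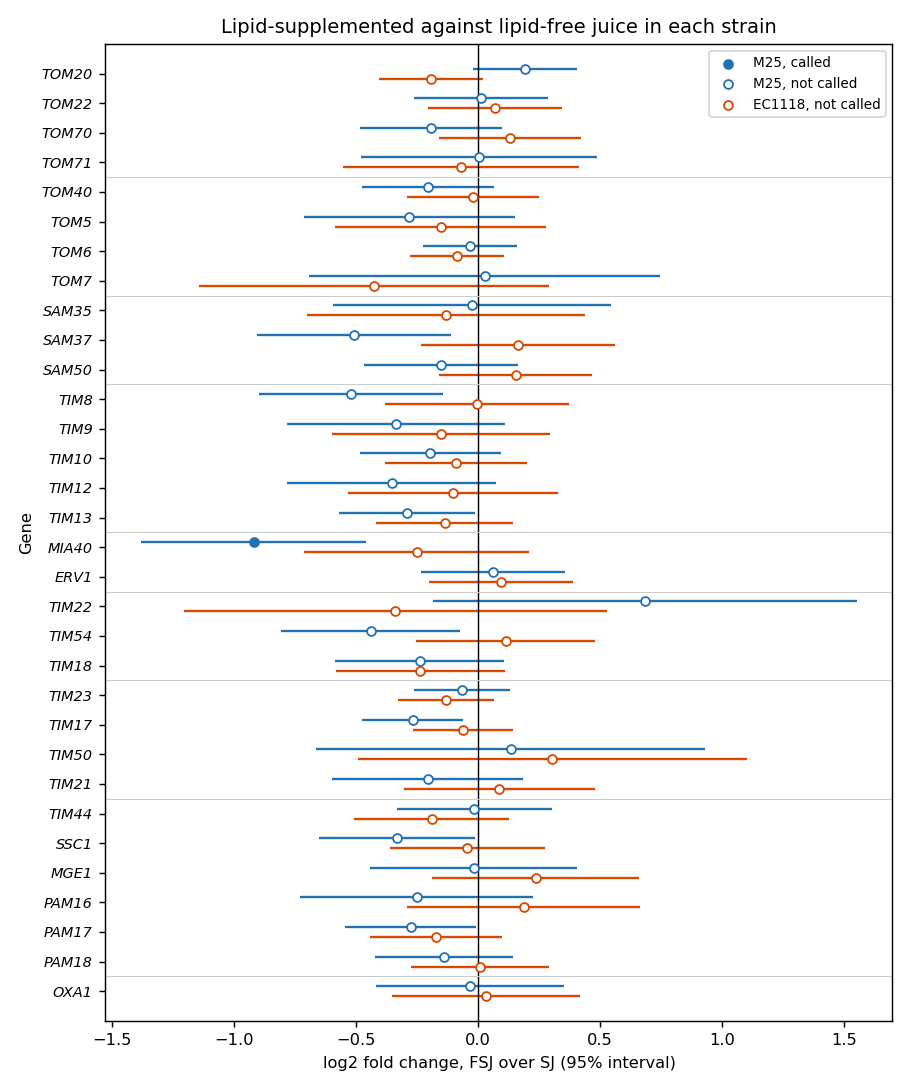
Log2 fold change of FSJ over SJ for each import gene in M25 (blue) and EC1118 (orange), with 95% intervals from limma; filled points are called at an adjusted p under 0.05. The filled point of MIA40 in M25, at -0.92, is the only one, and most intervals include 0.

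Strain differences were also called among other import genes. A list of 29 further genes held the peptidases that cleave presequences, the chaperonins and cofactors of the matrix, other insertion factors and the cytosolic chaperones that carry precursors. Of these, 9 were called higher in EC1118 in SJ and 13 in FSJ, and 0 were called lower in either medium, which is 31.0% and 44.8% of the list against 9.05% and 24.4% of all genes called higher. Their median log2 difference was 0.37 in SJ and 0.40 in FSJ, against -0.035 and 0.17 over all genes. In FSJ the presequence processing genes were called in 5 of 7 cases, the matrix folding genes and motor partners in 4 of 6, the insertion and assembly factors in 1 of 7, and the cytosolic chaperones and outer membrane quality control genes in 3 of 9. The share of insertion and assembly factors, 14.3%, was below the 24.4% of all genes. Examples, chosen after their values were seen, were HSP60, the matrix chaperonin (log2 0.65 in SJ and 0.61 in FSJ, limma adjusted p = 0.000609 and 0.000556), and MDJ1, the J-protein of Ssc1 in folding (log2 1.42 and 1.88). Between the media, 0 of the 29 were called in the average, in either strain or in the interaction by limma, with 10.3%, 17.2%, 3.45%, and 10.3% of the list at an unadjusted p under 0.05 in the average, M25, EC1118 and the interaction, against 26.0%, 27.6%, 17.6% and 16.3% of all genes.

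Other nuclear genes of mitochondria, taken by symbol after these values were seen, were set beside the import genes. Of 75 mitochondrial ribosomal protein genes, 46 (61.3%) were called higher in EC1118 in SJ and 61 (81.3%) in FSJ, with 0 lower, against 43.8% and 59.4% of the import genes. Of 38 genes of the respiratory complexes and ATP synthase, 2 (5.26%) were called higher in SJ and 7 (18.4%) in FSJ, with 0 and 1 (2.63%) called lower. Of all genes, 9.05% and 24.4% were called higher, more than of the respiratory genes. The median log2 differences of the ribosomal genes were 0.66 and 0.86 and those of the respiratory genes 0.016 and 0.079. These differences between lists were not tested. The import genes thus lay between both lists in share called higher and in median.

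**Figure D5:**
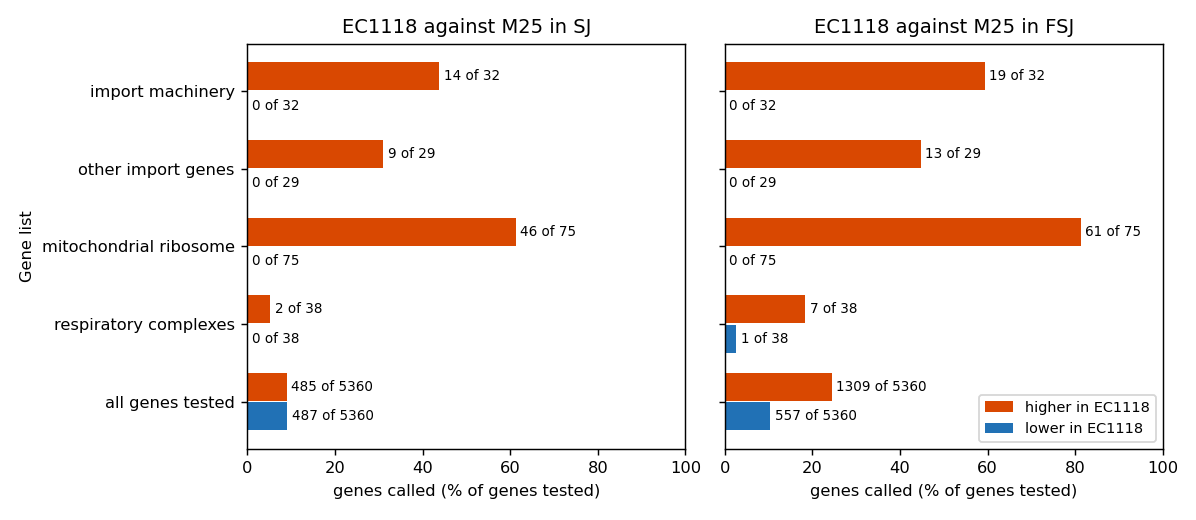
Percentage of genes called higher (orange) or lower (blue) in EC1118 than in M25, in SJ (left) and FSJ (right), for the 32 import genes, 29 other import genes, 75 mitochondrial ribosomal protein genes, 38 respiratory genes and all 5360 genes tested. The import genes reach 43.8% and 59.4% higher with no bar for lower, and all genes are near 9% each way in SJ.

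The spread of the import genes between replicates was a little below that of all genes in each group. That comparison was not matched for signal. The median log2 signal of the import genes was 8.35 to 9.04 over the arrays, above that of the probe sets tested. The median coefficient of variation of the 32 genes for M25 was 9.36% (SJ) and 12.0% (FSJ), and for EC1118 7.84% (SJ) and 13.3% (FSJ), against 10.1%, 13.4%, 11.7% and 16% over all genes. It was above 25% for 5 (SJ) and 1 (FSJ) genes in M25 and for 0 (SJ) and 5 (FSJ) in EC1118. The widest were TIM22 in M25 in SJ at 52.6% and TOM7 in EC1118 in FSJ at 52.3%, with signals of 885.5, 574 and 279. In that group replicate 3 was the lowest for TOM7, TOM5 (1566, 1591 and 961), TIM12 (174.5, 189.6 and 109.6) and TIM22 (129, 149 and 74.1). The number of arrays, 3 per group, limits the precision of every value. Sequence differences between the strains under the probes were not analysed here, so a strain difference is a difference in signal.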

How the data were processed

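The deposited values are signal intensity on a linear scale, made by the authors with MAS5 per the submitters' processing notes, whose version and target value the sources used here do not state. Intensities were floored at 1, put on the log2 scale and used with no further scaling. Of 9335 probe sets, 60 controls were left out, and of 9275 others 6504 had 1 gene symbol in GEO's platform annotation, 328 several and 2443 none. The 7349 probe sets above the array background on at least 3 of 12 arrays were tested with limma 3.58.1 in R 4.3.3 (lmFit on 4 group means, eBayes with an intensity trend), with Benjamini-Hochberg adjustment over all of them, and intervals are at 95%. The fit was tried on simulated data for the strain difference in SJ only, with added differences of 1 on the log2 scale. Smaller differences and the media contrasts were not simulated. The 32 members and the other lists were chosen with earlier results of these data known, and the ribosomal and respiratory lists after the values were seen. Genes named with values on every array are those called between the strains in both media. TOM20 is given the same way between the media, chosen after its values were seen, and other members are described by role. Same-numbered replicates did not deviate together (correlations of -0.16 to 0.14 over 18 pairs, 2 of them over 0.1), so no replicate block was used. Correlations of differently numbered replicates reached -0.27 and 0.27. P-values set a difference against a spread between cultures that was estimated over all 12 arrays, 3 per group. By eBayes that estimate also draws on the other probe sets, so it is not the spread of the groups compared alone. Alternatives were quantile normalization, median centring, filters, the replicate block, other variance settings and leaving out each array.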

Additional observations from a re-analysis of the deposited data

How the results depend on the processing

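Over 6 contrasts and up to 22 alternatives, 150 of 4160 values of single members changed sign, and 0 of these were called in the reported fit or under the alternative. Of the strain differences, 0 changed sign in SJ and 10 did in FSJ. These were TOM20 (-0.15), TOM6 (-0.044) and TIM44 (-0.21) with centring, TIM22 (-0.0058) and TIM44 (-0.11) with quantile normalization, and TOM7 (-0.47 to 0.36) and TIM44 (-0.10 to 0.12) when 1 array was left out. By limma, 0 members were called in EC1118 under 22 alternatives and 0 in the interaction under 21. The averaged effect of the lipids had 1 call in the reported fit and 0 with quantile normalization and with the replicate block, and 0 to 1 when 1 array was left out. Their effect in M25 had 1 call, 0 with quantile normalization, and 0 to 1 when 1 array was left out, the 0 being without M25 in SJ replicate 1 or 3 or M25 in FSJ replicate 3. The strain difference in SJ had 14 calls and 9 to 15 when 1 array was left out, with 9 without M25 in SJ replicate 3. Of all genes, 9.05% were called higher in the reported fit and 6.21% to 10.7% when 1 array was left out, with 6.21% without that array. The strain difference in FSJ had 19 calls, 16 to 20 when 1 array was left out and 14 with only the groups compared. The shares of all genes called higher there were 24.4%, 18.6% to 24% and 15.9%. Same-numbered replicates did not deviate together, which does not show that they shared no batch. With the replicate block the strain calls were 13 in SJ and 20 in FSJ, where 8.49% and 22.7% of all genes were called higher. The cause was not tested. Of the strain calls, 9 of 14 in SJ and 12 of 19 in FSJ were kept under every alternative, and TIM9, TIM13, MIA40, ERV1, TIM17, SSC1, MGE1 and OXA1 were kept in both media. Calls kept in this way were not counted over all genes. The median interaction of the members, 0.15, was 0.049 with quantile normalization and -0.10 with centring. Over all genes it was 0.20 in the reported fit, 0.056 and -0.054. Centring shifts all genes of an array alike, so it cannot change the distance of the members from all genes. Without M25 in SJ replicate 2 the median strain difference of the members in SJ was 0.47, against -0.042 over all genes. With 3 arrays per group, signal near background limits TOM71.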
